A study of Mus musculus with 12 samples.

Results

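The genes described here are those that give GABAergic interneurons of the hippocampus their identity, or that make, store, take up, break down and sense their transmitter GABA. The list holds 30 genes named by symbol, of 41743 genes in the expression table. Of these, 29 symbols were matched directly, and Dlx6os1 was matched by its Ensembl identifier (ENSMUSG00000090063), since the table carries 2 rows of that symbol and the other is a short fragment at 0.162 RPKM on average. RPKM is a read count scaled by gene length and by library depth.

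RNA was sequenced from hippocampi of male C57Bl/6 mice, 12 weeks old, of which 6 had been exposed to a toxicant mixture used to model Gulf War illness and 6 had received vehicle. The toxicant mice had been injected under the skin on weekdays over 2 weeks with 2.5 mg/kg pyridostigmine bromide and 12.5 mg/kg chlorpyrifos, both cholinesterase inhibitors, and 7.5 mg/kg of the insect repellent DEET. The hippocampus was taken when exposure ended. Interneurons are a small part of this tissue, and in bulk samples fewer cells of a type and less RNA per cell cannot be told apart. All animals shared strain, sex and age, and each library is labelled as a different mouse.

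The columns of control 4 and control 5 were identical in every gene and were counted as 1 library, control 4-5, which left 6 toxicant and 5 control libraries. The reads behind the RPKM scale came to 21.5 M to 28.4 M in toxicant libraries and 25.0 M to 34.9 M in control libraries. The share of those reads that lay on annotated genes was 76.8% to 83.8% in toxicant libraries. In control libraries it was 89.5%, 78.4%, 88.4%, 83.1% and 87.4% for controls 1, 2, 3, 4-5 and 6. Controls 2 and 4-5 thus lay within the toxicant range, while controls 1, 3 and 6 lay above it. Members were covered by 86.0 reads per library (Dlx5) to 16521 (Gabbr1) on average, with a median of 841.

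GABA is made from glutamate by the glutamic acid decarboxylases GAD67 (Gad1) and GAD65 (Gad2), loaded into vesicles by VGAT (Slc32a1), cleared by membrane transporters and degraded by GABA transaminase (Abat). Interneurons arise in the ganglionic eminences under homeodomain factors of the Dlx family. Cells of medial origin then express Lhx6 and become parvalbumin or somatostatin cells, while cells of caudal origin express Nr2f2 or Adarb2. In the hippocampus the resulting classes target the soma, dendrites or axon initial segment of pyramidal cells. In GRCm38 coordinates of GENCODE M21, the protein-coding genes Gad1 and Gad2 span chr2:70553072-70602014 and chr2:22622205-22693874 on the plus strand, and Lamp5 spans chr2:136052239-136069917 on that strand. On the minus strand, Erbb4 spans chr1:68032186-69108059 and the noncoding gene Dlx6os1 chr6:6820189-6871592.

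Interneuron transcripts were found in the tissue, though their presence cannot tell hippocampal from other GABAergic neurons. The defining interneuron genes Gad1, Gad2, Slc32a1, Dlx1, Dlx6os1, Lhx6, Sst, Npy and Vip all passed the filter on low values, which asked for 0.5 RPKM or more on average across 11 libraries. Their summed level was 268 to 357 RPKM in toxicant and 250.1 to 402 RPKM in control libraries, and most of that sum was Sst. Dopamine receptor genes of the striatum, a neighbouring GABAergic tissue, were low in both groups. Drd1 was at 0.673 to 0.748 RPKM in toxicant and 0.619 to 0.775 RPKM in control libraries.

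No member passed the test of toxicant against control, and neither did any other gene. Each of 13493 genes was tested with limma on log2(RPKM + 0.5), a scale that understates the change of low genes, with Benjamini-Hochberg adjustment over all of them. At an adjusted p under 0.05, 0 of 29 tested members and 0.0% of all genes were called, and the smallest adjusted p of a member was 0.199 (Lamp5). At an unadjusted p under 0.05, 1 member was lower in toxicant libraries, or 3.45% of the members beside 17.0% of all genes. At that p 3 members (Gad2, Erbb4 and Dlx6os1) were higher, or 10.3% beside 3.33% of all genes. The lower and higher counts over all genes were 2288 and 449 on the deposited scale and 694 and 1105 after median-ratio scaling, where 1 member was lower and 4 were higher. The median log2 fold change was -0.11 over the members and -0.11 over all tested genes, and 14 of 29 members lay below the all-gene median. After median-ratio scaling the median was 0.0011 over the members and 0.0014 over all genes, so that changes are to be read against a common shift of about -0.11. In no member did the toxicant and control libraries separate completely, while 2.03% of all genes had every toxicant library below, and 0.111% every one above, the controls.

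**Figure D1:**
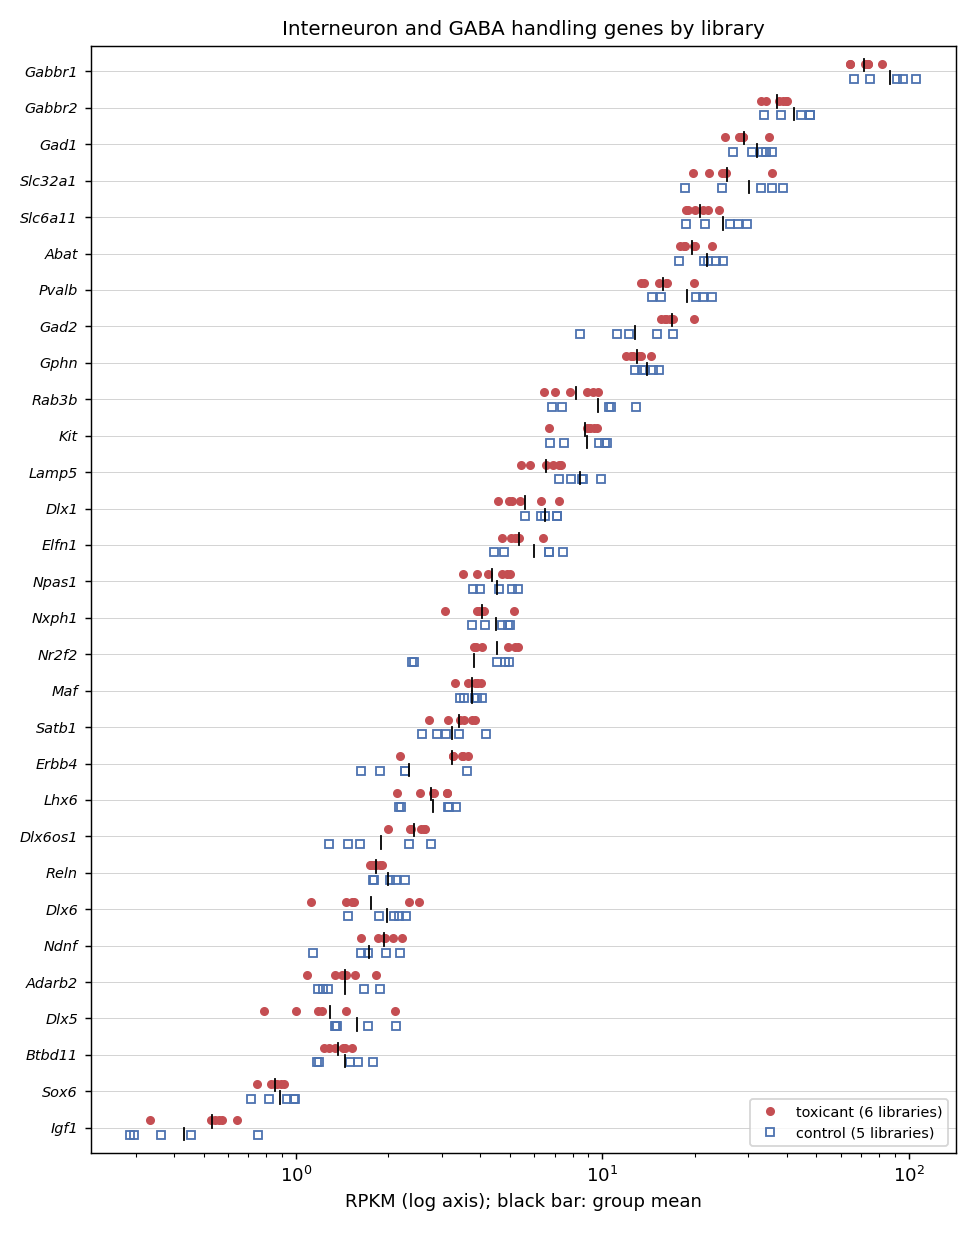
RPKM of the 30 members on a log axis, with 1 point per library, 6 toxicant (filled circles, upper line of each row) and 5 control (open squares, lower line), and a black bar at each group mean. Toxicant and control libraries overlap in each gene, and Gad2 shows toxicant libraries between 15.5 and 20.0 RPKM beside control libraries between 8.46 and 17.0 RPKM.

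The 2 enzymes that synthesise GABA had means on opposite sides of their controls, though the small difference in Gad1 turned sign after quantile normalization (0.018) and with the percentage of reads on genes as a covariate (0.029). Gad2, whose product is held at terminals and synaptic vesicles, was at 15.5 RPKM in the lowest toxicant library, 16.4 at their median and 20.0 in the highest. The control libraries 1, 2, 3, 4-5 and 6 had 8.46, 17.0, 12.2, 15.0 and 11.2 RPKM of Gad2. All 6 toxicant libraries lay above the control median, and controls 2 and 4-5 were the high ones. Counts against the control median, here and below, were not taken over all genes. The log2 fold change was 0.42 ± 0.15 (SE, unadjusted p = 0.0134, limma adjusted p = 0.217).

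Gad1, whose product makes most of the GABA in the cell body, was at 25.1, 28.5 and 35.1 RPKM in the lowest, the median and the highest toxicant library. The control libraries had 34.1, 26.6, 35.8, 30.8 and 33.2 RPKM of Gad1, in the same order as above. Here controls 2 and 4-5 were the low ones and toxicant 1 the high one of its group, and the log2 fold change was -0.14 ± 0.10 (limma adjusted p = 0.340). The ratio of Gad2 to Gad1 RPKM within a library, which no scaling of the library alters, was 0.484 to 0.707 in toxicant libraries (median 0.576). It was 0.248, 0.638, 0.341, 0.489 and 0.337 in controls 1, 2, 3, 4-5 and 6. Control 2 thus exceeded 5 of the 6 toxicant libraries, and controls 1, 3 and 6 lay below all 6.

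Slc32a1, the vesicular GABA transporter, was at 19.8, 24.9 and 35.8 RPKM in the lowest, median and highest toxicant library. Controls 1, 2, 3, 4-5 and 6 had 38.8, 18.6, 35.9, 24.6 and 33.0 RPKM of it. The controls differed among themselves by 2.09-fold, more than the toxicant libraries (1.80-fold), and the log2 fold change of -0.21 ± 0.19 was about the size of its error (limma adjusted p = 0.441). It turned to 0.19 ± 0.10 with that covariate. Toxicant 1, the toxicant library with the largest share of reads on genes (83.8%), was the highest of its group for Gad1 and Slc32a1. Toxicant 6, with nearly the same share (83.1%), had 28.7 RPKM of Gad1 and 25.3 RPKM of Slc32a1.

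Clearance genes had lower means in toxicant libraries, with overlapping groups, but with that covariate Slc6a11 and Abat were at 0.016 and 0.018, and Abat was at 0.0021 after quantile normalization. Slc6a11, the transporter GAT-3 that astrocytes use to take up GABA, averaged 20.9 ± 2.03 RPKM in toxicant libraries and 24.8 ± 4.51 RPKM in control libraries (SD, n = 6 and 5). All 6 toxicant libraries lay below its control median, and the log2 fold change was -0.23 ± 0.12 (limma adjusted p = 0.266). Abat averaged 19.6 ± 1.76 RPKM in toxicant and 21.9 ± 2.67 RPKM in control libraries (-0.15 ± 0.09). Astrocytes carry both genes, and the summed level of 8 astrocyte markers was 265 to 299 RPKM in toxicant and 255 to 330 RPKM in control libraries. Slc1a2 was the largest part of that sum. Of the 8 markers 5 were lower and 3 higher, with log2 fold changes from -0.38 (Gfap) to 0.27 (Aqp4). What the number of astrocytes contributed to these values was not tested.

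The subunits of the metabotropic GABA-B receptor, which work as a heterodimer, both had lower means in toxicant libraries, though with the covariate Gabbr2 was at 0.03. Gabbr1 averaged 71.7 ± 6.59 RPKM in toxicant and 87.0 ± 16.1 RPKM in control libraries (log2 fold change -0.26 ± 0.12, limma adjusted p = 0.248). Gabbr2 averaged 37.3 ± 2.97 RPKM in toxicant and 42.3 ± 6.16 RPKM in control libraries (-0.17 ± 0.10). For each subunit all 6 toxicant libraries lay below the control median, and controls 2 and 4-5 were the lowest controls. Gphn, gephyrin, the scaffold under GABA-A and glycine receptors, averaged 13.0 ± 0.870 RPKM in toxicant and 14.0 ± 0.989 RPKM in control libraries (-0.10 ± 0.07, but 0.024 after median-ratio scaling and 0.0093 after quantile normalization). Gphn shares exon sequence with the antisense gene Gm48226 (1.58 RPKM), and no source used here states whether reads were counted by strand.

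Among the transcription factor genes, those of the Dlx family and their antisense RNA had means on different sides of their controls. With the covariate these differences were small, at 0.04 for Dlx6os1, -0.01 for Dlx6, -0.05 for Dlx5 and -0.09 for Dlx1. Dlx6os1 (also Evf2), a long noncoding RNA that in mice regulates Dlx5 and Dlx6 and the number of hippocampal interneurons, was at 2.00, 2.47 and 2.63 RPKM in the lowest, median and highest toxicant library. Controls 1, 2, 3, 4-5 and 6 had 1.28, 2.76, 1.62, 2.33 and 1.48 RPKM of it. All 6 toxicant libraries exceeded the control median, controls 2 and 4-5 lay within the toxicant range or above it, and the log2 fold change was 0.32 ± 0.14 (unadjusted p = 0.0441, limma adjusted p = 0.242).

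Dlx6, which lies inside the Dlx6os1 locus without sharing exon sequence with it, averaged 1.75 ± 0.553 RPKM in toxicant and 1.98 ± 0.319 RPKM in control libraries (-0.17 ± 0.16). For Dlx6, 2 of 6 toxicant libraries were above each control and 2 were under each control. Dlx5 averaged 1.29 ± 0.456 RPKM in toxicant and 1.58 ± 0.342 RPKM in control libraries (-0.24 ± 0.16), and 4 of 6 toxicant libraries were under each control. Dlx1 averaged 5.59 ± 0.992 RPKM in toxicant and 6.52 ± 0.624 RPKM in control libraries (-0.22 ± 0.11), again with 4 of 6 under each control. Toxicant 1, at 7.21 RPKM of Dlx1, was above each control. Dlx1 shares exon sequence with its antisense gene Dlx1as (2.24 RPKM), so the split of reads between them is uncertain.

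The other factors had means close to their controls, apart from Nr2f2. Lhx6, which maintains medially derived interneurons, averaged 2.75 ± 0.366 RPKM in toxicant and 2.80 ± 0.566 RPKM in control libraries (-0.01 ± 0.12). Maf, needed for somatostatin and parvalbumin fates, Satb1, a chromatin organiser of the same lineage, and Sox6, which positions these cells, had log2 fold changes of 0.0048 ± 0.07, 0.07 ± 0.11 and -0.03 ± 0.08. Npas1, a basic helix-loop-helix factor of interneurons, had one of -0.05 ± 0.11. Nr2f2 (COUP-TFII), a nuclear receptor of caudally derived cells, averaged 4.52 ± 0.687 RPKM in toxicant and 3.82 ± 1.30 RPKM in control libraries (0.26 ± 0.18, limma adjusted p = 0.346). Its controls formed 2 sets, with 2.42 and 2.40 RPKM in controls 2 and 4-5 and 4.81, 4.54 and 4.95 RPKM in controls 1, 3 and 6, while the toxicant libraries ranged from 3.81 to 5.29 RPKM.

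Of the subtype markers, Lamp5 had the smallest p of all members. Lamp5 encodes a membrane protein of GABAergic terminals and marks neurogliaform cells, though excitatory neurons also carry it. It was at 5.43, 6.71 and 7.35 RPKM in the lowest, median and highest toxicant library. Controls 1, 2, 3, 4-5 and 6 had 9.90, 7.24, 8.62, 8.56 and 7.91 RPKM. Of the 6 toxicant libraries 5 lay below every control, and only toxicant 1, at 7.35 RPKM, exceeded control 2. The log2 fold change was -0.35 ± 0.10 (unadjusted p = 0.00364, limma adjusted p = 0.199).

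Erbb4, the neuregulin receptor that promotes excitatory synapses onto interneurons, had the opposite direction. It was at 2.19, 3.37 and 3.64 RPKM in the lowest, median and highest toxicant library. The controls had 1.63, 3.62, 1.88, 2.28 and 2.27 RPKM, so that 5 of 6 toxicant libraries exceeded the control median and control 2 was within the upper toxicant range. The log2 fold change was 0.42 ± 0.16 (unadjusted p = 0.0224, limma adjusted p = 0.223).

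Pvalb, the calcium buffer of fast-spiking basket cells, was at 13.4, 15.7 and 19.9 RPKM in the lowest, median and highest toxicant library, against 22.9, 15.5, 20.3, 14.6 and 21.3 RPKM in the controls. All 6 toxicant libraries lay below the control median, and controls 2 and 4-5 lay among them (-0.24 ± 0.13, limma adjusted p = 0.278). Reln, the extracellular protein reelin of neurogliaform, somatostatin and Cajal-Retzius cells, averaged 1.82 ± 0.0655 RPKM in toxicant and 2.00 ± 0.212 RPKM in control libraries (-0.11 ± 0.07, but 0.0011 after median-ratio scaling). Nxph1, a neurexin ligand of interneurons, Elfn1, which sets release onto somatostatin cells, and the vesicle GTPase Rab3b had log2 fold changes of -0.15 ± 0.11, -0.14 ± 0.13 and -0.20 ± 0.16, which turned to 0.0035, 0.11 and 0.090 with the covariate.

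The remaining subtype markers lay near 0 or had large errors. Ndnf, a secreted protein of neurogliaform cells, had a log2 fold change of 0.15 ± 0.12. Adarb2, an RNA-binding protein of caudally derived cells, the receptor tyrosine kinase Kit, and Btbd11, a synaptic protein of inhibitory neurons, had 0.0075 ± 0.12, -0.0089 ± 0.13 and -0.05 ± 0.09. Igf1, the growth factor that some interneurons secrete, was the 1 member under the filter and was not tested. It was at 0.334 to 0.643 RPKM in toxicant libraries and at 0.296, 0.754, 0.287, 0.456 and 0.362 RPKM in the controls.

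**Figure D2:**
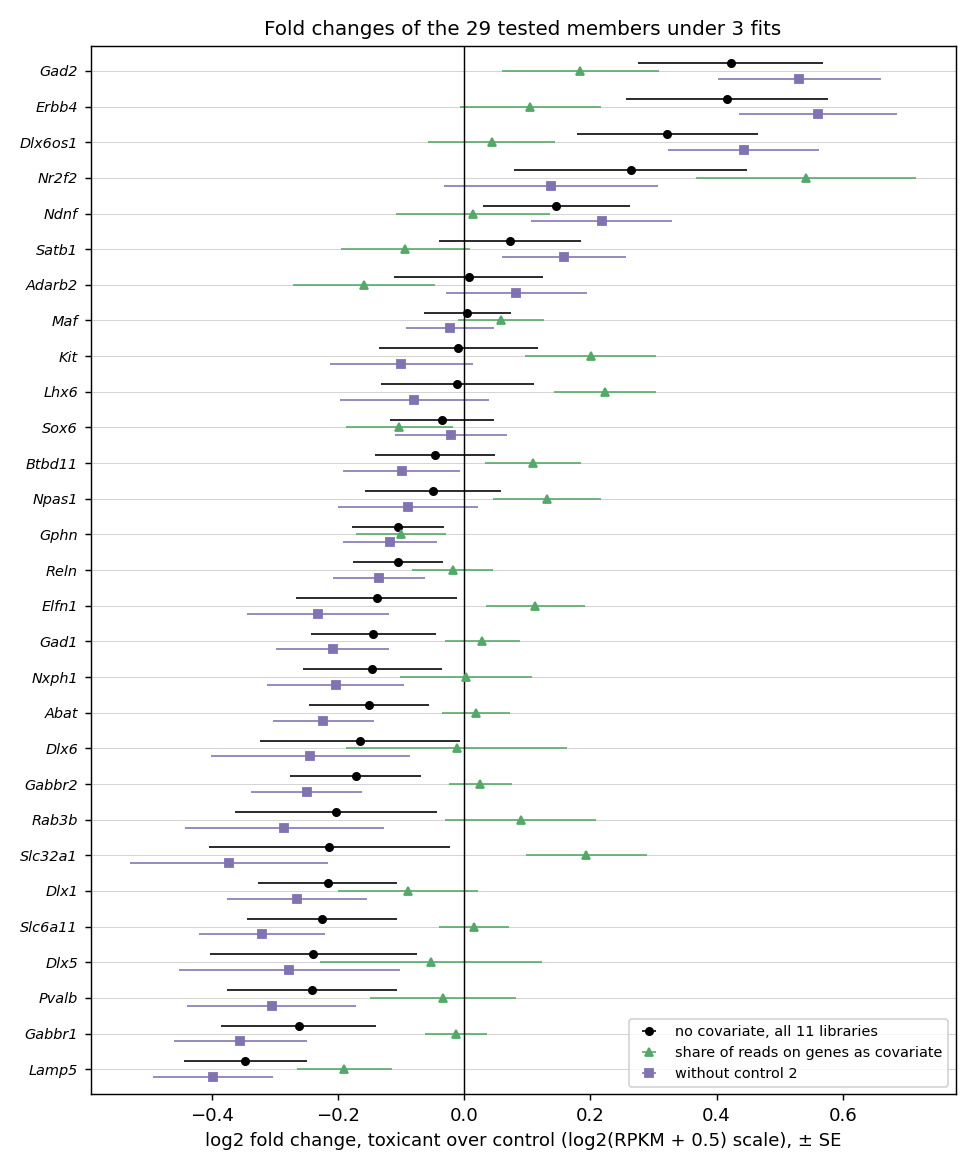
Log2 fold changes of toxicant over control with SE for the 29 tested members, from the fit with no covariate (black circles), with the on-gene read percentage as covariate (green triangles) and without control 2 (violet squares). With the covariate 20 of the 29 values lie nearer to 0, and without control 2 Gad2 and Erbb4 are at 0.53 and 0.56.

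Members and all tested genes alike often followed 1 order of the controls. In 18 of 29 members (62.1%) controls 1, 3 and 6 all lay above controls 2 and 4-5, and in 6 (Gad2, Erbb4, Dlx6os1, Satb1, Adarb2 and Ndnf) all 3 lay below, where the same held for 46.3% and 28.2% of all tested genes. In such genes the control median is the value of control 1, 3 or 6. Of the 29 members, 18 had 5 or 6 toxicant libraries below the control median, and 6 had 5 or 6 above it. The coefficient of variation was larger in control than in toxicant libraries in 23 of 29 members, with medians of 11.8% in toxicant and 18.5% in control libraries, beside 10.9% and 18.1% over all genes. Over all tested genes the control value was the larger in 78.7%.

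With the percentage of reads on genes as a covariate, 18 of 29 members were higher and 11 lower in toxicant libraries, with a median of 0.02, and 14 turned sign. Of all 13493 tested genes 5235 were then higher and 8258 lower, with a median of -0.03, and 6010 turned sign. The log2 fold changes of Gad2, Erbb4 and Dlx6os1 were then 0.18 ± 0.12, 0.10 ± 0.11 and 0.04 ± 0.10, and that of Lamp5 was -0.19 ± 0.08. Slc32a1 stood at 0.19 ± 0.10, Gad1 at 0.03 ± 0.06 and Gabbr1 at -0.01 ± 0.05. Values nearer to 0 with the covariate were found in 9671 of the 13493 genes as well. Nr2f2 and Lhx6 lay farther from 0, at 0.54 ± 0.17 and 0.22 ± 0.08 (unadjusted p = 0.00934 and 0.0176, limma adjusted p = 0.265 and 0.293). Both were higher and Lamp5 was lower at an unadjusted p under 0.05, where 4.34% of all genes were higher and 9.13% lower, and none passed adjustment.

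**Figure D3:**
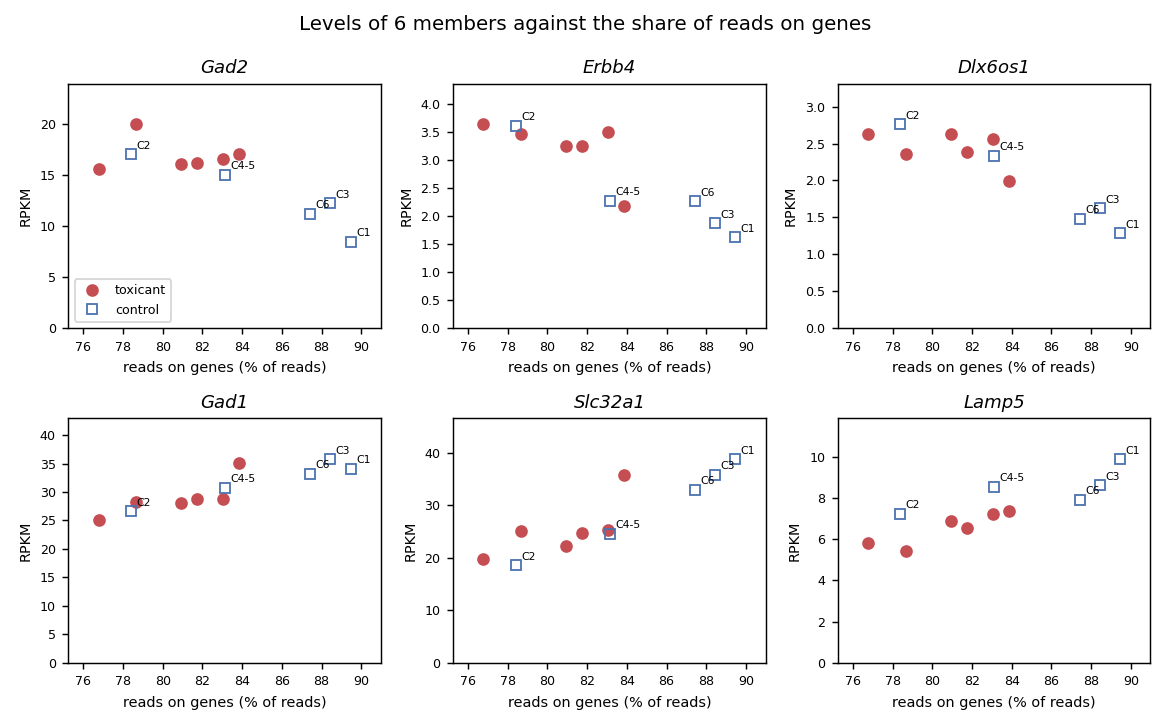
RPKM of 6 members (vertical axes from 0) against the percentage of reads on annotated genes, for 6 toxicant (filled circles) and 5 control libraries (open squares, numbered, C4-5 for the merged library). Gad2, Erbb4 and Dlx6os1 are lowest in controls 1, 3 and 6, apart from toxicant 1 for Erbb4, while Gad1, Slc32a1 and Lamp5 lie above the toxicant libraries there, apart from toxicant 1 for Gad1 and Slc32a1.

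Leaving out control 2 changed the calls. Without it limma called 8 members and 4929 of 13493 genes at an adjusted p under 0.05. Gad2 (0.53 ± 0.13), Erbb4 (0.56 ± 0.13) and Dlx6os1 (0.44 ± 0.12) were then called higher, 10.3% of the members beside 8.56% of all genes. Lamp5 (-0.40 ± 0.09), Gabbr1 (-0.35 ± 0.10), Gabbr2 (-0.25 ± 0.09), Slc6a11 (-0.32 ± 0.10) and Abat (-0.22 ± 0.08) were called lower, 17.2% of the members beside 28.0% of all genes. Their adjusted p ran from 0.0229 for Erbb4 to 0.0467 for Abat. Leaving out any other single library called 0 members and 0 genes.

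The members also differed in base composition, a property that the choice of the list did not use. The longest transcript of each gene in GENCODE M21 had a median G+C content of 49.3% over the members and 50.0% over all tested genes. The 8 members with a positive log2 fold change had 38.2% to 47.4% (median 44.5%), each below the all-gene median. The 21 with a negative one had 46.1% to 61.9% (median 51.1%), 13 of them above it. Gad2 had 44.1% and Gad1 47.3%, and Dlx6os1 had 38.2% beside 49.4% for Dlx6. Across genes, which are not independent replicates and share their libraries, Pearson's r between G+C content and log2 fold change was -0.64 over the 29 members and -0.49 over 13488 genes. With the covariate it was 0.08 over the members and 0.17 over all genes.

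**Figure D4:**
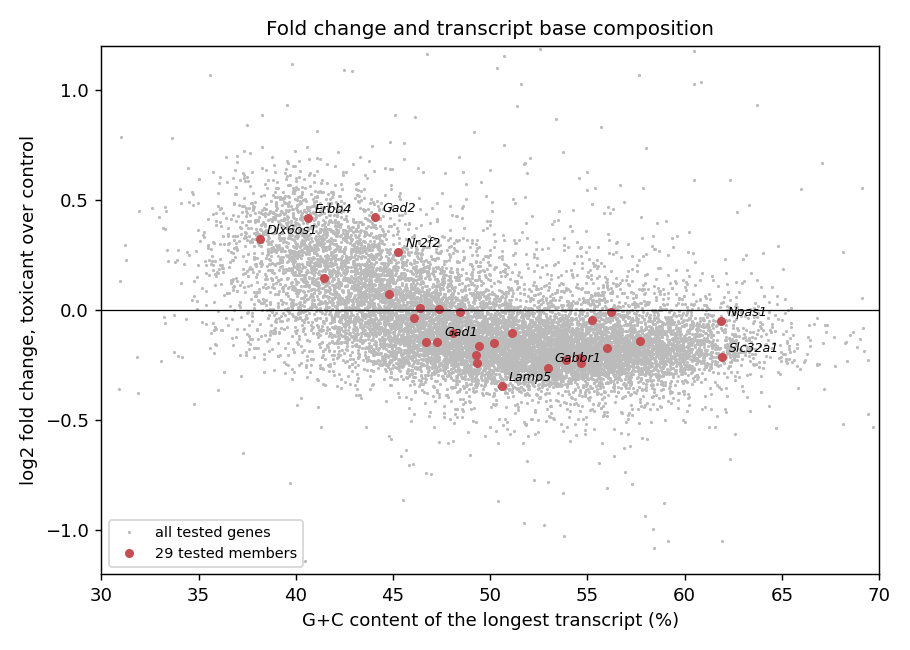
Log2 fold change of toxicant over control against the G+C content of the longest transcript, for all tested genes (grey) and the 29 tested members (red, 9 of them named); 45 genes lie outside the axes. Erbb4, Gad2 and Dlx6os1 sit among G+C-poor genes with positive fold changes, and the 13 members above the all-gene median of 50.0% lie below 0.

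Regions before RefSeq starts are shown for Gad1 and for the 4 members at an unadjusted p under 0.05, so that their sequence can be set beside that of the transcript. Each is the 250 bases before the RefSeq start in GRCm38.p6, on the gene's own strand, and capitals mark TAATTA, the core that homeodomain proteins such as the Dlx factors bind. Gad1 lies on the plus strand at chr2:70561879-70562128, Gad2 on the plus strand at chr2:22622077-22622326 and Lamp5 on the plus strand at chr2:136052089-136052338. Erbb4 lies on the minus strand at chr1:69108060-69108309 and Dlx6os1 on the minus strand at chr6:6869534-6869783.
Gad1: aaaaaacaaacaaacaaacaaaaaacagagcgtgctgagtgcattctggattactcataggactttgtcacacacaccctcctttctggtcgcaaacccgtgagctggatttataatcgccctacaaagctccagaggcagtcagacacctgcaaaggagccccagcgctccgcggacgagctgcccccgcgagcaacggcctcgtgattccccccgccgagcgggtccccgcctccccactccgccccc
Gad2: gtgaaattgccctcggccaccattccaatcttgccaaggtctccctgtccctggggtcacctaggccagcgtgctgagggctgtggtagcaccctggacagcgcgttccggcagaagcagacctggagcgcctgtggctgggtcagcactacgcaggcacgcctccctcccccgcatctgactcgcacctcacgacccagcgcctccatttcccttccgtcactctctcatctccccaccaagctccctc
Lamp5: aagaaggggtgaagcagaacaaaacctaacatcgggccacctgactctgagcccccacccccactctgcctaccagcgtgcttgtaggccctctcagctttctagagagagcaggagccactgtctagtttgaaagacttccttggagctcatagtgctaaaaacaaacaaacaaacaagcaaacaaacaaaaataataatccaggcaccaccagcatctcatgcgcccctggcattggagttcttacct
Erbb4: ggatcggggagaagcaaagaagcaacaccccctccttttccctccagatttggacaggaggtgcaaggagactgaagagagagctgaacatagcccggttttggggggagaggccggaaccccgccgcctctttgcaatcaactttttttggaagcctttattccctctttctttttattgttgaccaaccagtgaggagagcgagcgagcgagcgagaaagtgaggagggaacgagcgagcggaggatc
Dlx6os1: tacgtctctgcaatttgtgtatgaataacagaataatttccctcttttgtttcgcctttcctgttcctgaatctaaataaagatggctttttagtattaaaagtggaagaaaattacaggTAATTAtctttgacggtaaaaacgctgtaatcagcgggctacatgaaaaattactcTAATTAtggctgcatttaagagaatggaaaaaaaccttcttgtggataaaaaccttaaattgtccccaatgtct
Gad1 and Gad2 held 58.0% and 64.0% G+C in these windows, Lamp5 49.2%, Erbb4 54.0% and Dlx6os1 33.2%. Gad2 was thus richer in G+C than Gad1 in its window and poorer over its transcript. The windows of Gad1 and Dlx6os1 lie inside the GENCODE spans given above, and those of Gad2 and Lamp5 overlap the GENCODE starts. A window and the GENCODE transcript compared with it can thus have different starts. RefSeq windows were matched for 25 members. TAATTA, which reads the same on both strands, occurred in 3 of these 25 windows (Dlx6os1 with 2 copies, Adarb2 and Btbd11), or 12.0%, beside 4.84% of 32851 windows in the mouse reference. The E-box CACGTG occurred in 1 (Reln), or 4.00%, beside 6.02% of all windows, and the cyclic AMP response element TGACGTCA in 0, beside 1.55%. Neither motif overlaps TAATTA, and each also equals its reverse complement. A match here describes letters and no binding was measured.

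Other genes of the GABA system were read from 4 further lists, in which no gene passed adjustment either. Over all tested genes 9440 were lower and 4053 higher, with 17.0% lower and 3.33% higher at an unadjusted p under 0.05. With the on-gene read percentage as covariate 8258 were lower and 5235 higher, with 9.13% lower and 4.34% higher at that p. Of 19 GABA-A receptor subunit genes 12 were tested, with 10 higher and 2 lower in toxicant libraries and a median log2 fold change of 0.31. At an unadjusted p under 0.05, 5 were higher and 2 lower. With the covariate 6 were higher and 6 lower, the median was 0.00018, and 0 were higher and 2 lower at that p. Gabrd, the delta subunit of extrasynaptic receptors, averaged 4.60 ± 0.361 RPKM in toxicant and 6.47 ± 1.15 RPKM in control libraries (-0.44 ± 0.11, limma adjusted p = 0.172). Gabra5, the alpha subunit of tonic inhibition in pyramidal cells, averaged 46.3 ± 3.74 RPKM in toxicant and 54.7 ± 2.60 RPKM in control libraries (-0.24 ± 0.08), with 6 of 6 toxicant libraries below each control. Gabrg3 averaged 1.56 ± 0.142 RPKM in toxicant and 1.19 ± 0.224 RPKM in control libraries (0.30 ± 0.10).

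Of 30 peptide, calcium-binding and subtype genes 27 were tested, with 13 higher and 14 lower (median -0.04), of which 1 and 3 had an unadjusted p under 0.05. The balance turned with the covariate, to 17 higher and 10 lower (median 0.09), of which 5 and 2 had such a p. The peptides that name interneuron classes did not pass. Sst, somatostatin, averaged 182 ± 25.5 RPKM in toxicant and 200.2 ± 55.2 RPKM in control libraries (-0.10 ± 0.18). Npy, neuropeptide Y, averaged 40.9 ± 5.65 RPKM in toxicant and 41.9 ± 5.39 RPKM in control libraries (-0.04 ± 0.12). Vip, of cells that inhibit other interneurons, averaged 3.33 ± 0.720 RPKM in toxicant and 2.75 ± 0.493 RPKM in control libraries (0.23 ± 0.14).

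Cck, cholecystokinin, averaged 149.9 ± 23.6 RPKM in toxicant and 187 ± 33.2 RPKM in control libraries (-0.31 ± 0.14). Cnr1, the cannabinoid receptor of the terminals of Cck basket cells, averaged 25.0 ± 3.38 RPKM in toxicant and 19.3 ± 4.34 RPKM in control libraries (0.38 ± 0.15). Both genes mark one basket cell class, and they had means in opposite directions. With the covariate Cck was at -0.03 ± 0.07 and Cnr1 at 0.14 ± 0.12. Their longest transcripts had 56.9% and 44.9% G+C. What other cells contributed to either gene was not tested. Syt2, the calcium sensor of parvalbumin terminals, averaged 1.91 ± 0.258 RPKM in toxicant and 2.55 ± 0.182 RPKM in control libraries (-0.35 ± 0.08, limma adjusted p = 0.170), with 5 of 6 toxicant libraries below each control. Id2, a regulator found in neurogliaform and many other cells, had a log2 fold change of -0.20 ± 0.07, with 6 of 6 below each control.

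Of 23 genes of GABA uptake, supply, chloride balance and the inhibitory synapse, 18 were lower and 5 higher (median -0.15), and 6 were lower and 0 higher at an unadjusted p under 0.05. With the covariate 13 were lower and 10 higher (median -0.02), and 4 were lower and 3 higher at that p. Glul, glutamine synthetase of astrocytes, had a log2 fold change of -0.28 ± 0.10. Aldh5a1, which oxidises the product of GABA transaminase, had -0.18 ± 0.07, and Slitrk3, an adhesion protein of inhibitory synapses, had -0.18 ± 0.07. Of 18 further interneuron transcription factor genes 15 were tested, with 4 higher and 11 lower (median -0.11), of which 1 and 2 had an unadjusted p under 0.05. With the covariate 7 were higher and 8 lower (median -0.01), of which 1 and 0 had such a p. Etv1, an ETS factor, had 0.32 ± 0.10, Bcl11b, a zinc finger factor also found in granule cells, -0.20 ± 0.09, and Dlx2, the partner of Dlx1, -0.34 ± 0.16.

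Markers of other cell types that carry some of the members were read beside them. The 7 microglial markers, cells that also express Maf, were at 58.4 to 76.1 RPKM in sum in toxicant and 74.5 to 94.2 RPKM in control libraries. The 7 markers of oligodendrocyte precursors, which also express Sox6, were at 68.1 to 85.1 RPKM in toxicant and 70.1 to 116 RPKM in control libraries. The 6 endothelial markers were at 27.7 to 33.7 RPKM in toxicant and 35.3 to 41.3 RPKM in control libraries, with no overlap. Of 6 Cajal-Retzius markers, Lhx1, Lhx5 and Ebf3 were under the filter. Trp73 was at 0.548 to 0.774 RPKM in toxicant and 0.530 to 0.978 RPKM in control libraries. Cacna2d2, another of them, was at 2.28 to 4.97 RPKM in toxicant and 2.26 to 4.12 RPKM in control libraries. The member Ndnf, also on that list, was at 1.63 to 2.21 RPKM in toxicant and 1.14 to 2.18 RPKM in control libraries. The 6 markers of excitatory neurons were at 1123 to 1493 RPKM in toxicant and 1209 to 1996 RPKM in control libraries, with Nrgn the largest part. Markers of tissue next to the hippocampus were read as well. The 5 choroid plexus markers summed to 14.7 to 1797 RPKM in toxicant and 16.3 to 2879 RPKM in control libraries, most of it Ttr. The 8 of striatum and septum summed to 22.6 to 30.5 RPKM in toxicant and 23.8 to 43.4 RPKM in control libraries. Of 5 thalamic markers, Lef1 and Tnnt1 were under the filter, and the sum was 5.07 to 12.4 RPKM in toxicant and 7.07 to 11.3 RPKM in control libraries. What these cells contributed to the values of the members was not tested.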

How the data were processed

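Per the labels' protocols, hippocampal RNA was extracted with TRIzol, selected for poly(A) and sequenced as single 75-base reads. The authors deposited RPKM values for 41743 genes in 12 libraries, per the file headers. Which aligner, counter and genome build they used is not given in the sources used here. Columns were matched to samples by the code in the sample description. The replicates are labelled as different mice. Exon lengths and positions were taken from GENCODE M21 (GRCm38, 41675 identifiers matched). Multiplied by exon length, 98.3% to 98.4% of a library's values were whole multiples of 1 read within 0.05 reads, which gave the depth and, from the sum, the share of reads on genes.

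Genes averaging 0.5 RPKM or more were tested as log2(RPKM + 0.5) with limma 3.58.1 in R 4.3.3 (two-sided, variance trend, no covariate, Benjamini-Hochberg threshold 0.05). The code was tested on simulated data. The members and lists were chosen with earlier results of these data known, so counts over them are descriptions. Values per library are given for members at an unadjusted p under 0.05 and for Gad1, Gad2, Slc32a1, Pvalb and Dlx6os1. The 3 genes with the smallest p of each further list are named, with Sst, Npy, Vip, Cck and Gabrd. A gene chosen by name is not reported here. Igf1, Nr2f2 and other values by library were added after they were seen. Alternatives were pseudocounts, filters, scalings, a covariate, a replicate block, the variance trend, all 12 columns and leaving out each library.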

Additional observations from a re-analysis of the deposited data

Results flagged for a closer look

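In 8 of 92 groups of libraries screened, 1 library stood farther from the nearest of the others than Dixon's critical value allows, and chance gives about 1 in 20. In 5 of these it was toxicant 1, the toxicant library with the largest share of reads on genes (83.8%). Toxicant 6 had nearly the same share (83.1%) and was not the library apart in any group. Gad1 was at 35.1 RPKM in toxicant 1, where the other toxicant libraries ranged from 25.1 to 28.8 RPKM. Slc32a1 was at 35.8 RPKM in toxicant 1, with the others at 19.8 to 25.3 RPKM. Erbb4 was at 2.19 RPKM in toxicant 1, with the others at 3.25 to 3.64 RPKM, and Igf1 at 0.334 RPKM, with the others at 0.529 to 0.643 RPKM. The further gene Cnr1 was at 18.6 RPKM in toxicant 1, with the others at 24.3 to 27.5 RPKM.

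Toxicant 2 stood apart for Gad2, at 20.0 RPKM beside 15.5 to 17.0 RPKM, and for Kit, at 6.68 RPKM beside 8.93 to 9.58 RPKM. Toxicant 4 stood apart for Bcl11b, at 17.2 RPKM beside 21.1 to 22.9 RPKM. No control group was singled out.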

How the results depend on the processing

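The counts of calls depended on 1 library, control 2, more than on settings. Among all genes 1 was called with a pseudocount of 0.1 and 10 with all 12 libraries, and 0 to 4929 when 1 library was left out. Without 1 library 0 to 8 members were called, 1 to 9 were lower and 1 to 3 higher at an unadjusted p under 0.05, and 0 to 2 had groups that did not overlap (1 without toxicant 1). The upper ends came without control 2, apart from the count of higher members. That count was 1 without control 1 or control 3, where 145 and 172 of 13493 genes were higher at that p. The count of lower members was 3 without control 4-5, 4 without toxicant 1, 2 without toxicant 2 or 6, 4 with the replicate block and 2 with no variance trend. Over all 13493 genes 5381 were lower and 1736 higher at that p without control 2. The lower count was 2467 without control 4-5, and 2291, 1600 and 2145 without toxicant 1, 2 and 6. With the replicate block it was 3600, and with no variance trend 2278. The member counts are to be read beside these. At that p 694 genes were lower and 1105 higher with median-ratio scaling, and 1173 and 850 with quantile normalization, beside 2288 and 449 as deposited. The median log2 fold change of the members was 0.02 with the on-gene read percentage as covariate, beside -0.03 over all tested genes. Whether the replicate numbers pair the libraries was not settled. The correlation of deviations of same-numbered libraries was -0.30 for number 3 and 0.27 to 0.62 for the other 4. In 2 of 5 pairs the own number gave the best correlation. With the block 3600 genes were lower and 1064 higher at an unadjusted p under 0.05, and 0 were called.

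Of 29 members 11 kept their sign in each setting. With the on-gene read percentage as covariate the log2 fold change was 0.029 for Gad1, 0.19 for Slc32a1, 0.016 for Slc6a11, 0.018 for Abat, 0.025 for Gabbr2, 0.22 for Lhx6, 0.0035 for Nxph1, -0.093 for Satb1, -0.16 for Adarb2, 0.13 for Npas1, 0.20 for Kit, 0.11 for Elfn1, 0.090 for Rab3b and 0.11 for Btbd11. Of the further genes Npy was then at 0.14 and Sst at 0.24. With quantile normalization it was 0.018 for Gad1, 0.0021 for Abat, 0.0093 for Gphn, 0.021 for Lhx6, -0.0083 for Adarb2, 0.0094 for Npas1, 0.093 for Kit, 0.13 for Npy and 0.13 for Sst. With median-ratio scaling it was 0.024 for Gphn, 0.0011 for Reln, 0.10 for Lhx6, 0.048 for Sox6, 0.071 for Npas1, 0.12 for Kit, 0.054 for Btbd11, 0.096 for Npy and 0.033 for Sst. With all 12 libraries it was 0.037 for Lhx6, -0.013 for Maf, -0.021 for Adarb2, 0.027 for Kit and 0.013 for Npy, and with the replicate block -0.012 for Maf and -0.011 for Adarb2. Leaving out 1 library gave -0.083 to 0.048 for Lhx6, -0.022 to 0.037 for Maf, -0.045 to 0.083 for Adarb2, -0.11 to 0.0052 for Npas1, -0.099 to 0.064 for Kit, -0.099 to 0.013 for Btbd11, -0.11 to 0.040 for Npy and -0.23 to 0.0069 for Sst. The causes were not tested.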
